A study of Mus musculus with 6 samples.

Results

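The 10 genes described here are core radial glia genes, which mark the neural stem cells of the embryonic cortex: Nes, Vim, Fabp7, Slc1a3, Prom1, Ttyh1, Dbi, Ednrb, Ddah1 and Veph1. They were chosen by name, were matched to Ensembl identifiers in the count tables, and make up 10 of the 54146 genes listed there. Expression was measured by RNA sequencing of sorted cells in 2 groups of 3 libraries, labelled Mir and Scr. Mir cells received the plasmid psil-pre-miR3607, which drives a miR-3607 precursor hairpin from the U6 promoter, at 1 µg/µl. Scr cells received psil-pre-miRScr, the negative control hairpin of the vector kit, at the same concentration. Both groups also received pCAG-GFP at 0.7 µg/µl, in 1 µl injected into a lateral ventricle on embryonic day E14.5 and electroporated with 5 pulses of 45 V. GFP-positive cells were sorted 24 h later, at E15.5, from wild-type embryos. On their strain the labels conflict: the protocol names ICR, the characteristics C57BL/6. Each library held the pooled cells of 2 embryos, and the 3 pools of a group were independent of each other. The gate kept every GFP-positive cell, so progenitors and their newborn progeny were measured together, and the mature microRNA itself is not among the quantities counted.

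Radial glia line the ventricle of the developing cortex, divide there, and give rise to neurons either directly or through intermediate progenitors. Their long basal fibre reaches the brain surface and serves as a track for migrating neurons. The genes described here encode the fibre's intermediate filaments, binding proteins for fatty acids and acyl-CoA, proteins of the plasma membrane, and components of endothelin and nitric oxide signalling. Several of them, Nes, Fabp7 and Slc1a3 above all, are the standard markers by which these cells are recognised in mouse cortex.

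The sequences that bear on the comparison are the strand that the Mir hairpin encodes and the places where it could pair with these genes. The 22 nt mature strand, read from the hairpin oligonucleotide, is shown first with its seed, bases 2 to 8, in capitals. The only mouse microRNA with the same seed among 1738 in the RefSeq table (GRCm38.p6) is shown next, at chr1:93346135-93346155 on the plus strand.
hairpin mature strand: gCATGTGAtgaagcaaatcagt
mmu-miR-6902-3p: cCAUGUGAuguguggguucag

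A 3′ UTR, the untranslated end of a messenger RNA, was called a site holder when it contained TCACATG (a 7mer-m8 match) or CACATGA (a 7mer-A1 match), and the 8mer TCACATGA joins both. Such a site was found in 2 of the 10 core genes, against 2208 of the 12719 tested genes with a 3′ UTR, 17.4%. No core gene had the 8mer, which 339 of those genes had. The core genes' 3′ UTRs had a median length of 1165 nt, against 1022 nt for the tested genes. Ednrb had a site at base 286 of its 2441 nt 3′ UTR (chr14:103816763-103816791, minus strand, GRCm38) and another at base 1678 (chr14:103815371-103815399, minus strand). Ddah1 had a site at base 794 of its 2719 nt 3′ UTR (chr3:145892341-145892369, plus strand). The 3 sites are shown with their flanks, the match in capitals.
Ednrb 7mer-m8: ccctagtgcgtTCACATGccacttacgtt
Ednrb 7mer-A1: aatccacgtgaCACATGActctctttagg
Ddah1 7mer-m8: gagagactgagTCACATGccatgagtttg

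The libraries were similar in depth, with 12724511 to 16684038 counts in genes, and the smallest count behind any value of a core gene was 335. Each level below is in CPM, a count relative to its library's size, after scaling by the trimmed mean of M values, and each fold change is Mir over Scr on the log2 scale with its standard error and 95% interval. The markers of 3 neighbouring populations were high in all libraries beside the core genes. Among cortical neuron genes, Neurod6, a neuronal transcription factor, averaged 2026 ± 213 CPM in Mir and 2218 ± 194 CPM in Scr (SD, n = 3 each). Tubb3, a neuronal tubulin, averaged 545 ± 61.9 CPM in Mir and 731 ± 245 CPM in Scr. Insm1 and Elavl4, the leading genes of the intermediate progenitor list, averaged 1029 ± 97.5 and 736 ± 174 CPM in Mir, against 702 ± 137 and 647 ± 129 CPM in Scr. Among genes of dividing cells, Top2a averaged 471 ± 72.1 CPM in Mir and 366 ± 77.4 CPM in Scr, and Mcm2 averaged 313 ± 25.7 CPM in Mir and 232 ± 31.5 CPM in Scr.

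None of the 10 core genes differed between Mir and Scr by edgeR's quasi-likelihood test with Benjamini-Hochberg adjustment over all 16897 tested genes, of which 0.00592% (1 gene, lower in Mir) passed an adjusted p of 0.05. At an unadjusted p under 0.05, 0 core genes passed, where 6.57% of tested genes were higher in Mir and 7.93% lower. DESeq2 called 0 core genes, against 3.64% of the genes to which it gave an adjusted p (1.44% higher, 2.2% lower), and limma-voom also called 0. In 0 core genes did the Mir libraries lie wholly above or below the Scr libraries, where 9.72% of tested genes lay wholly above and 10.3% wholly below. The fitted fold change was above 0 for 9 core genes and below 0 for Ednrb, where 48.8% of tested genes were above 0. Its median was 0.177 over the core genes and -0.0077 over all tested genes, and the median standard error was 0.206 for the core genes and 0.195 for all tested genes. The 95% intervals of the 10 genes together covered ratios of Mir to Scr from 0.654, the low end for Ednrb, to 1.81, the high end for Fabp7. Each gene's own interval was narrower, such as 0.826 to 1.41 for Prom1. Changes within a gene's own interval were not resolved with 3 libraries per group. A missing call does not show that the levels were equal. In a sorted mixture measured in bulk, fewer cells of a type and less RNA per cell cannot be told apart.

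**Figure D1:**
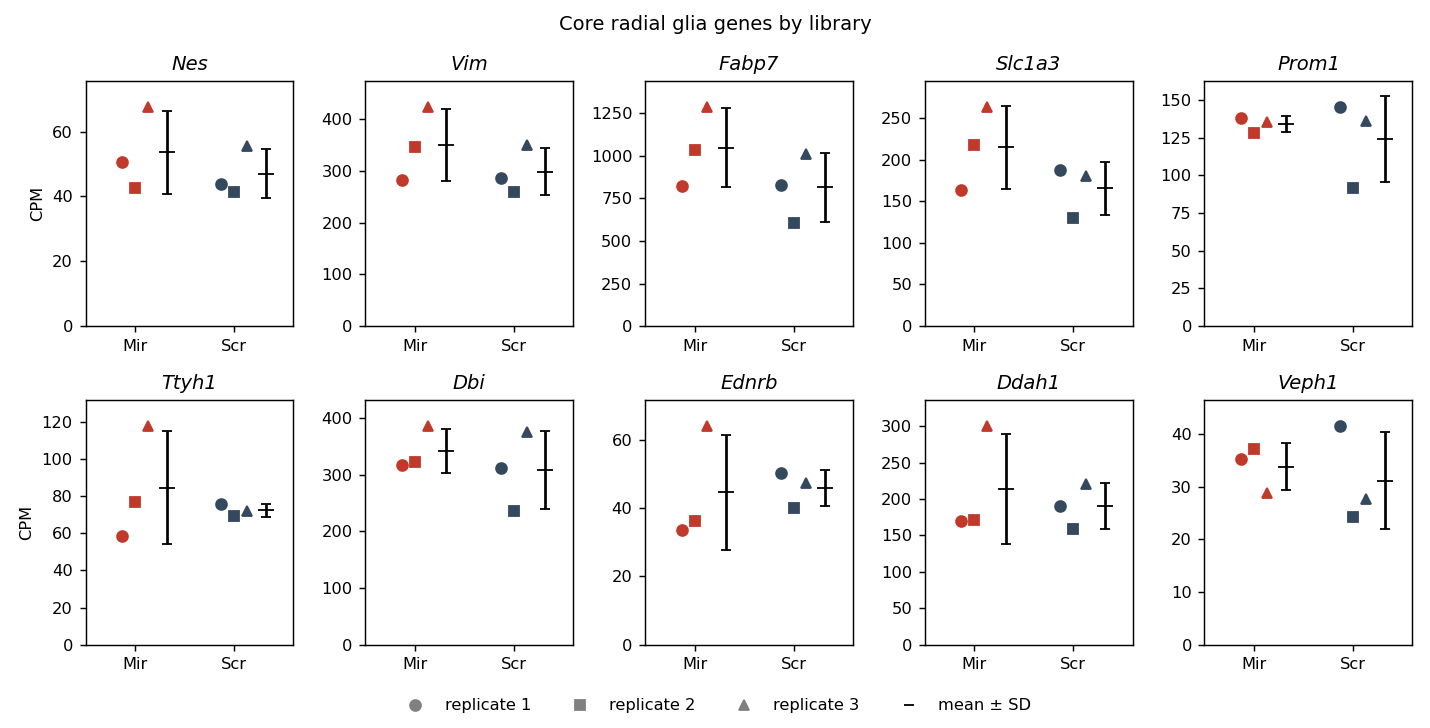
Level of each core radial glia gene in each library, in CPM, with 3 Mir libraries to the left of 3 Scr libraries, the group mean as a line and the SD as a bar. In every panel the points of the groups overlap, and the third Mir library is the highest point in 8 of the 10 panels.

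Nes and Vim encode the intermediate filaments of the radial fibre, nestin assembling together with vimentin. Nes (ENSMUSG00000004891, chr3:87971078-87980451, plus strand, GRCm38) had 50.6, 42.7 and 67.5 CPM in Mir libraries 1, 2 and 3, against 43.8, 41.5 and 55.7 CPM in Scr libraries 1, 2 and 3. The third library of each group was its highest, and the groups overlapped. Its fold change was 0.19 ± 0.19 (95% interval -0.26 to 0.63, edgeR adjusted p = 0.690), and without Mir 3 it was -0.029. Vim (ENSMUSG00000026728, chr2:13573927-13582826, plus strand) had 283, 346 and 423 CPM in Mir, against 286, 260.0 and 349 CPM in Scr. Only Mir 3 lay above every Scr library, while Mir 1 lay just under Scr 1. Its fold change was 0.23 ± 0.17 (95% interval -0.16 to 0.62, edgeR adjusted p = 0.554), and without Mir 3 it was 0.058.

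Fabp7 and Dbi encode small cytosolic carriers, of fatty acids and of acyl-CoA. Fabp7 (ENSMUSG00000019874, chr10:57784881-57788450, plus strand), also known as brain lipid-binding protein and in mouse a known target of Notch signalling in radial glia, had 826, 1037 and 1286 CPM in Mir, against 828, 609 and 1012 CPM in Scr. Mir 2 and Mir 3 lay above all Scr libraries and Mir 1 lay among them. The fold change of Fabp7 was 0.36 ± 0.21 (95% interval -0.13 to 0.86, edgeR adjusted p = 0.474), the second highest of the set, and it was 0.17 without Mir 3. Dbi (ENSMUSG00000026385, chr1:120113280-120121078, minus strand), whose protein binds acyl-CoA and whose peptide products act on GABA-A receptors, had 318, 323 and 387 CPM in Mir, against 312, 237 and 375 CPM in Scr. All 3 Mir libraries lay above Scr 1, and Scr 2 stood lowest of the 6. Its fold change was 0.15 ± 0.17 (95% interval -0.24 to 0.54, edgeR adjusted p = 0.715) and fell to -0.0077 without Scr 2.

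Slc1a3, Prom1 and Ttyh1 encode proteins of the plasma membrane. Slc1a3 (ENSMUSG00000005360, chr15:8634124-8710764, minus strand), the glutamate transporter GLAST, had 164, 218 and 263 CPM in Mir, against 187, 129 and 181 CPM in Scr. Mir 2 and Mir 3 lay above all Scr libraries, while Mir 1 lay between Scr 2 and Scr 3. The fold change of Slc1a3 was 0.37 ± 0.20 (95% interval -0.09 to 0.84), with an unadjusted p of 0.101 and an adjusted p of 0.434 by edgeR, and it was 0.19 without Mir 3.

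Prom1 (ENSMUSG00000029086, chr5:43993620-44102032, minus strand), the stem cell surface protein prominin, which sits on apical membrane protrusions, had 138, 128 and 136 CPM in Mir, against 145, 91.7 and 136 CPM in Scr. Its Mir libraries were the closest together of any core gene, with a coefficient of variation of 3.97% in Mir and 23.0% in Scr, where library 2 was low. The fold change was 0.11 ± 0.17 (95% interval -0.28 to 0.49, edgeR adjusted p = 0.801) and was -0.070 without Scr 2. Ttyh1 (ENSMUSG00000030428, chr7:4119408-4136708, plus strand), a membrane protein of the tweety family found in neural stem cells, showed the reverse spread, at 36.0% in Mir and 4.75% in Scr. It had 58.7, 77.0 and 118 CPM in Mir, against 76.1, 69.3 and 71.9 CPM in Scr, so the lowest and the highest libraries were both Mir. The fold change of Ttyh1 was 0.22 ± 0.23 (95% interval -0.31 to 0.76, edgeR adjusted p = 0.692) and was -0.11 without Mir 3.

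Reads of Prom1, Ttyh1 and Veph1 cannot be told apart by strand from those of genes that overlap them on the other strand. Gm16401 shares 5.91% of the exon bases of Prom1 and had 82 to 121 counts per library, while 2 antisense genes overlapping Ttyh1, 9430041J12Rik and D030047H15Rik, had 52 to 106 and 62 to 112 counts. Gm37822 shares 1.30% of the exon bases of Veph1 and had 7 to 20 counts. Words of 50 bases that also occur in other genes, on either strand, made up 6.61% of the Prom1 transcript and 3.71% of Ttyh1. For Prom1 the only such gene was Gm16401, and for Ttyh1 9430041J12Rik shared the most words. Both are overlapping genes named above, so these words are not copies at another place. Such words were also 3.17% of Dbi (in Gm12222), 1.96% of Veph1 (in 73 genes) and 0.394% of Ednrb, and 0 of the other 5 transcripts.

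Ednrb, Ddah1 and Veph1 belong to signalling. Ednrb (ENSMUSG00000022122, chr14:103814625-103844402, minus strand), the G protein-coupled receptor for endothelins and a holder of the pair of seed matches shown above, had 33.8, 36.3 and 64.3 CPM in Mir, against 50.2, 40.1 and 47.6 CPM in Scr. Mir 1 and Mir 2 lay below every Scr library and Mir 3 lay above every Scr library, so the group means, 44.8 ± 16.9 CPM in Mir and 46.0 ± 5.25 CPM in Scr, nearly coincided. Its fold change was -0.04 ± 0.25 (95% interval -0.61 to 0.53, edgeR adjusted p = 0.957). The value was -0.41 without Mir 3 (adjusted p = 0.220) and 0.14 without Mir 1.

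Ddah1 (ENSMUSG00000028194, chr3:145758675-145894277, plus strand) encodes the enzyme that breaks down asymmetric dimethylarginine, an inhibitor of nitric oxide synthases. It had 169, 172 and 301 CPM in Mir, against 191, 159 and 221 CPM in Scr. Mir 3 stood above the other 5 libraries, and Mir 1 and Mir 2 lay within the range of Scr. The fold change of Ddah1, the other gene with a seed match, was 0.17 ± 0.24 (95% interval -0.39 to 0.72, edgeR adjusted p = 0.785), and it was -0.18 without Mir 3. Veph1 (ENSMUSG00000027831, chr3:66053558-66296837, minus strand), a membrane-associated protein with a pleckstrin homology domain named for its expression in the ventricular zone, had 35.4, 37.2 and 28.8 CPM in Mir, against 41.6, 24.3 and 27.7 CPM in Scr. Veph1 was the one core gene for which Mir 3 was the lowest Mir library. Its fold change was 0.12 ± 0.22 (95% interval -0.38 to 0.62, edgeR adjusted p = 0.839) and was -0.034 without Scr 2.

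**Figure D2:**
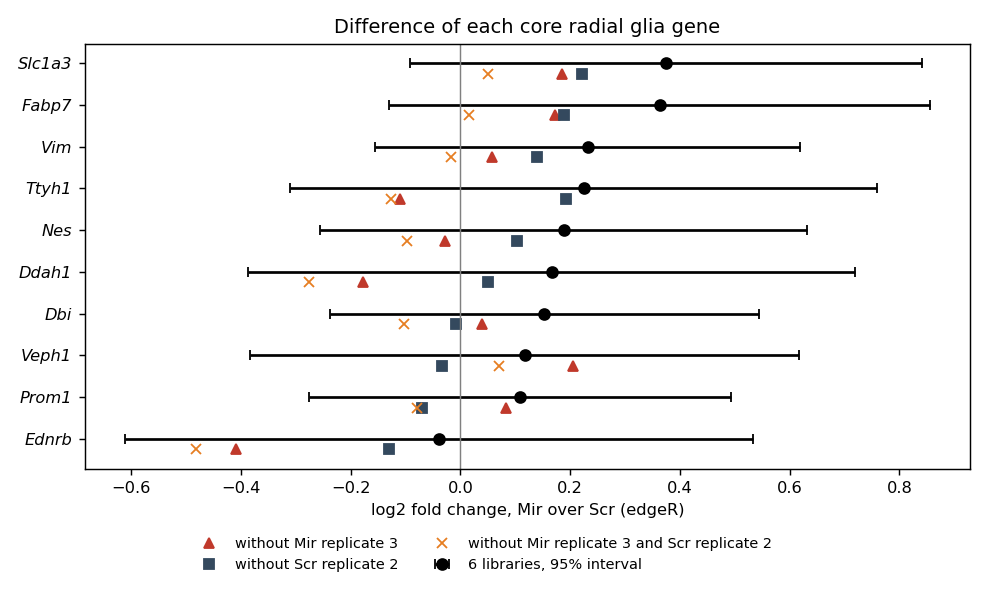
Log2 fold change of each core radial glia gene, Mir over Scr, from edgeR, with its 95% interval, beside the values from fits without Mir 3, without Scr 2 and without both. All 10 intervals include 0, and the intervals span -0.61 to 0.86 in all.

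Across libraries, most core genes were highest in Mir 3 and lowest in Scr 2. Mir 3 was the highest of the 6 libraries for 8 of the 10 genes, against 14.6% of tested genes, and Scr 1 was the highest for Prom1 and Veph1. Scr 2 was the lowest for 8 of the 10, against 21.6% of tested genes, and Mir 1 was the lowest for Ttyh1 and Ednrb. Relative to the Scr mean, the median core gene stood at 0.03, 0.09 and 0.52 on the log2 scale in Mir 1, 2 and 3, against 0.06, -0.28 and 0.19 in Scr 1, 2 and 3. Mir 3 exceeded the mean of the other Mir libraries by 0.87 in Ednrb, 0.82 in Ddah1 and 0.81 in Ttyh1, by 0.27 to 0.53 in Nes, Slc1a3, Fabp7, Vim and Dbi, and by 0.03 in Prom1, while Veph1 was 0.33 below it. The median of that difference was 0.48 over the core genes and 0.0011 over all tested genes. Scr 2 was below the mean of the other Scr libraries for all 10 genes, by a median of -0.42, from -0.09 in Ttyh1 to -0.61 in Prom1, with 0.016 as the median over all tested genes.

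Leaving out either library lowered the core genes' median fold change to 0.05 without Mir 3 and to 0.08 without Scr 2, while it was 0.28 without Mir 1 or without Mir 2 and 0.31 without Scr 3. With both left out it was -0.088, with 6 of the 10 genes changing sign and Ednrb reaching -0.48 (edgeR adjusted p = 0.107), and again 0 core genes passed. Most core genes were highest in Mir 3 and lowest in Scr 2, so a fall in their median follows from the choice of these libraries. The core genes together took 0.206, 0.241 and 0.309% of the gene counts in Mir, against 0.218, 0.164 and 0.247% in Scr. These shares averaged 0.252 ± 0.0522% in Mir and 0.210 ± 0.0418% in Scr (SD, n = 3 each), and the ranges overlapped.

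**Figure D3:**
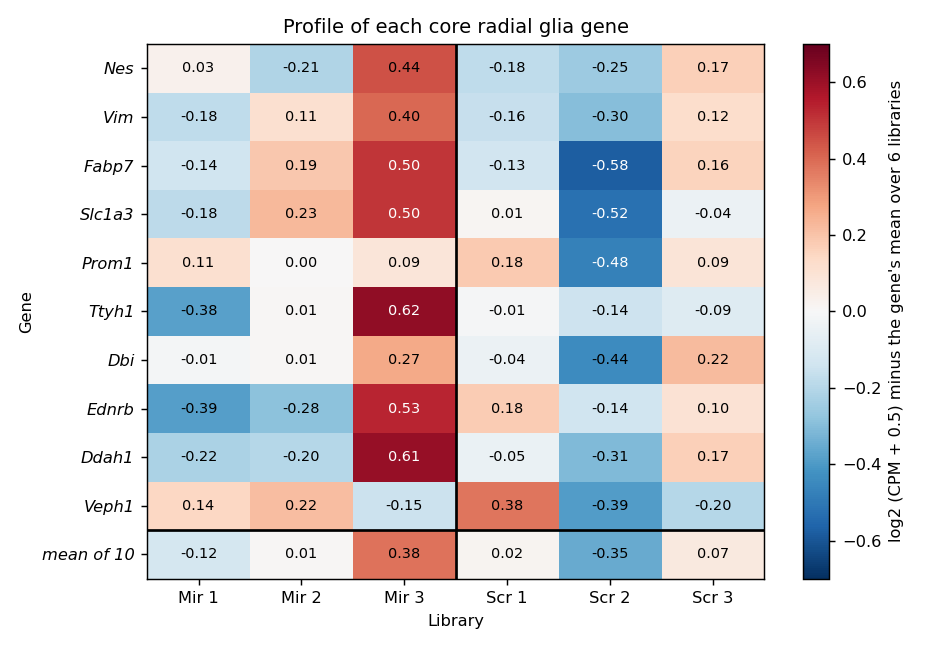
Log2 level of each core radial glia gene in each library, relative to that gene's mean over all 6 libraries. A colour scale has the value printed in each cell, with Mir columns left of Scr columns and a last row for the mean of the 10 genes. The Mir 3 column is above 0 for 9 of the genes and the Scr 2 column is below 0 for all of them.

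The same libraries stood apart in markers of other cells, whose part in the core genes' values was not tested. Genes of dividing cells followed the same order as the core genes at their ends: their median relative to the Scr mean was 0.35, 0.31 and 0.62 in Mir, against 0.10, -0.39 and 0.28 in Scr, with 10 of 10 fold changes above 0 and a median of 0.41. Intermediate progenitor genes shared only the low end, in Scr 2, at 0.43, 0.64 and 0.05 in Mir, against 0.29, -0.33 and -0.01 in Scr. Their fold changes were above 0 for 11 of 12, with a median of 0.42. Cortical neuron genes were at -0.47, -0.47 and -0.28 in Mir, against -0.20, 0.29 and -0.04 in Scr, with 12 of 15 below 0 and a median of -0.42. EdgeR called 0 genes of these lists after adjustment. At an unadjusted p under 0.05 it gave 5 dividing-cell and 5 intermediate progenitor genes higher in Mir and 6 cortical neuron genes lower. Over all tested genes, 6.57% were higher and 7.93% lower at that level. After adjustment DESeq2 called 1, 3 and 3 of these. Of all genes with an adjusted p from DESeq2, 1.44% were called higher and 2.2% lower. Inhibitory neuron genes, led by Dlx1, were below 0 for 10 of 10 with a median fold change of -1.51. Of them, 8 were lower at an unadjusted p under 0.05 by edgeR, where 7.93% of tested genes were. After adjustment edgeR called 0 of them and DESeq2 1, against 2.2% called lower by DESeq2. These inhibitory neuron genes summed to 217, 201 and 475 CPM in Mir, against 364, 1332 and 491 CPM in Scr.

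The other lists, apart from that of oligodendrocyte precursors, hold cells outside the cortical lineage, which sorting on electroporated GFP should leave out. RNA of such cells was present in some libraries. Endothelial genes, led by Cldn5 and Flt1, summed to 4.90, 4.66 and 42.1 CPM in Mir, against 97.7, 231 and 15.8 CPM in Scr, and 9 of 9 tested genes had fold changes below 0. Listed at 0 were 7 endothelial genes in Mir 1 and 6 in Mir 2. Pericyte and meningeal fibroblast genes, led by Col3a1 and Rgs5, summed to 4.64, 209 and 31.6 CPM in Mir, against 59.8, 109 and 28.4 CPM in Scr. Microglial genes, led by Csf1r and C1qb, summed to 10.1, 12.4 and 44.6 CPM in Mir, against 18.2, 47.6 and 64.1 CPM in Scr. Oligodendrocyte precursor genes, led by Olig2 and Olig1, summed to 32.5, 40.2 and 26.5 CPM in Mir, against 9.35, 47.1 and 22.9 CPM in Scr. Red cell globins, led by Hbb-bs and Hba-a1, summed to 50.7, 0.703 and 563 CPM in Mir, against 240.0, 839 and 555 CPM in Scr. Scr 2, in which 8 of the core genes were lowest, had the highest sums of inhibitory neuron, endothelial, oligodendrocyte precursor and globin genes. The combined pericyte and fibroblast sum was highest in Mir 2, though Rgs5 was highest in Scr 2, and the microglial sum was highest in Scr 3. Among the Mir libraries, Mir 3 had the highest inhibitory neuron, endothelial, microglial and globin sums, and Mir 2 the other 2.

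**Figure D4:**
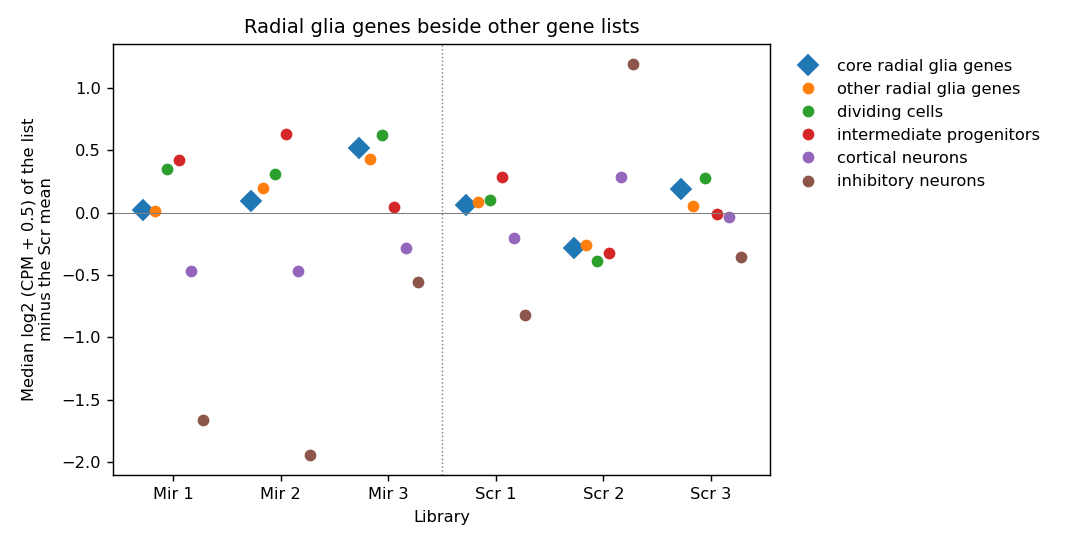
Median log2 level of 6 gene lists (both radial glia lists, dividing cells, intermediate progenitors, cortical and inhibitory neurons) in each library, with the mean of the Scr libraries set to 0 and Mir libraries left of Scr libraries. Among the core radial glia genes the highest dot is Mir 3 at 0.52 and the lowest is Scr 2 at -0.28. The other radial glia genes and the dividing-cell genes have their highest and lowest dots in the same libraries.

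The core genes spanned a wide range of levels per length, in TPM (counts per length of a gene's merged exons, scaled to a common sum). Fabp7 led at a mean of 2273 TPM over the 6 libraries, the 21st level among tested genes, with 2584 ± 564 TPM in Mir and 1961 ± 456 TPM in Scr. Dbi followed at 696 TPM, with 741 ± 80.7 TPM in Mir and 651 ± 137 TPM in Scr, and its highest library lay below the lowest of Fabp7. Vim at 208 TPM and Ddah1 at 154 TPM overlapped across libraries. Below them Slc1a3 at 68.0, Prom1 at 54.8, Ttyh1 at 37.5, Ednrb at 32.4 and Nes at 23.8 TPM formed a run in which neighbours overlapped. Veph1 came last at 14.0 TPM, below every value of Nes. Nes, the best known marker of these cells, was thus the ninth of the 10 per unit of merged exon length.

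**Figure D5:**
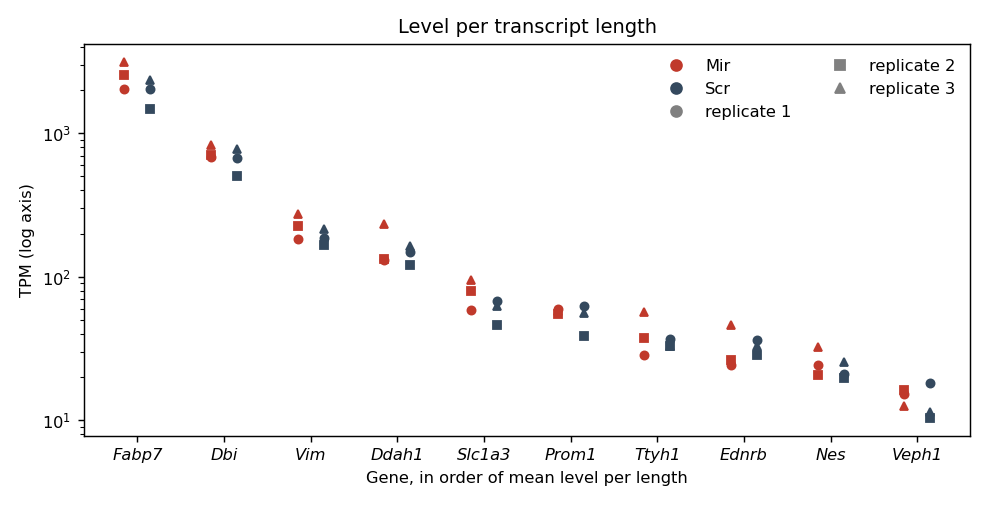
Level of each core radial glia gene per length of its merged exons, in TPM on a log axis, with Mir and Scr libraries as separate points and genes in order of their mean. Fabp7 and Dbi stand apart from the genes after them, while Slc1a3, Prom1, Ttyh1, Ednrb and Nes form a run of overlapping ranges.

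Among themselves, the core genes were compared by the root mean square difference of their log2 levels, each centred on its own mean over the 6 libraries. The closest pair was Fabp7 and Slc1a3, at 0.105. Vim was nearest to Fabp7 (0.13), Dbi to Vim (0.13), Nes to Ddah1 (0.14), Ednrb to Ddah1 (0.14), Prom1 to Dbi (0.14) and Ttyh1 to Ddah1 (0.17). Veph1 was the most distant gene for 8 of the others, at 0.20 from its nearest neighbour Prom1 and 0.45 from Ddah1. These are descriptions of 6 libraries that share their cell mixture and depth.

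Of 29 relatives and partners of the core genes, 22 passed the filter on low counts, 7 with fold changes above 0 and 15 below 0, with a median of -0.14, and edgeR called 0 of them. At an unadjusted p under 0.05, 2 of the 22 were lower in Mir, Nefl and Fabp3, where 7.93% of tested genes were lower, so this count is near that of genes at large. Within the filament family, Ina, a neuronal filament protein, averaged 104 TPM over the libraries, above Nes per length. It had 35.5, 30.1 and 122 CPM in Mir, against 75.5, 292 and 115 CPM in Scr, with a fold change of -1.36 ± 0.65 (edgeR adjusted p = 0.389). Its highest library was Scr 2, where the core genes were low. The neurofilament genes Nefl and Nefm averaged 5.25 and 5.27 TPM, and Synm, encoding synemin, 0.490 TPM. Of the fatty acid-binding proteins, Fabp5 averaged 105 TPM and Fabp3 10.6 TPM, both far under Fabp7. Fabp3 had 1.46, 1.09 and 2.37 CPM in Mir, against 2.18, 5.58 and 4.58 CPM in Scr, with a fold change of -1.33 (edgeR adjusted p = 0.274).

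Slc1a3 was higher per length than the 4 family members compared: the glutamate transporters reached 6.22 TPM in Slc1a1 and 1.14 TPM in Slc1a2, and the neutral amino acid transporters of the family 23.7 TPM in Slc1a4 and 5.56 TPM in Slc1a5. In the tweety family Ttyh3 stood above Ttyh1, at 117 TPM, and Ttyh2 below it, at 13.1 TPM. Ttyh3 had a fold change of -0.14. Among other acyl-CoA-binding proteins, Acbd6, Acbd3 and Acbd5 averaged 37.6, 29.0 and 23.7 TPM, all under Dbi, and Tspo, the mitochondrial protein to which Dbi binds, averaged 11.3 TPM.

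The partners of Ednrb were scarce. Ednra, the other endothelin receptor, was at 0, 0 and 2.44 CPM in Mir, against 4.44, 12.02 and 2.29 CPM in Scr, and followed the endothelial gene sums in being highest in Scr 2. The endothelin-converting enzymes Ece1 and Ece2 averaged 3.76 and 0.644 TPM, and the ligand genes Edn1, Edn2 and Edn3 were under 1 CPM on average, as were Gfap, Des, Prom2 and Acbd7. Around Ddah1 the levels were high. Ddah2, the paralog of Ddah1, averaged 1571 TPM, above Ddah1, with 827 ± 86.7 CPM in Mir and 817 ± 134 CPM in Scr and a fold change of 0.02. Prmt1, which makes the methylarginine that the Ddah1 enzyme removes, averaged 426 TPM with a fold change of 0.39 (edgeR adjusted p = 0.511), and Nos1, a nitric oxide synthase, averaged 10.7 TPM.

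A further 30 radial glia genes (transcription factors, Notch effectors and matrix or signalling proteins) were chosen from textbook knowledge, with earlier results of these data known. They gave 23 fold changes above 0 and 7 below, with a median of 0.185. This median was 0.34 without Mir 1, 0.33 without Scr 1, 0.12 without Mir 3, 0.13 without Scr 2 and 0.0041 without Mir 3 and Scr 2. Relative to the Scr mean, the median gene of this list stood at 0.02, 0.20 and 0.43 in Mir 1, 2 and 3, against 0.08, -0.26 and 0.05 in Scr 1, 2 and 3. It too was highest in Mir 3 and lowest in Scr 2, so its fall without them follows from the choice. EdgeR called 0 of the 30 genes after adjustment and 6 at an unadjusted p under 0.05, each higher in Mir, against 6.57% of tested genes. DESeq2 called 3 of them, Sfrp1, Lhx2 and Tnc, each higher, against 1.44%. Mir libraries lay wholly above Scr libraries for 5 of the 30, against 9.72% of tested genes, and for 0 of the 10 core genes. The difference between the lists was not tested.

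Sfrp1, a secreted Wnt antagonist, had 498, 533 and 586 CPM in Mir, against 319, 342 and 334 CPM in Scr, with a fold change of 0.70 ± 0.09 (edgeR adjusted p = 0.159). Its Scr libraries lay closer together than those of Fabp7 or Slc1a3, and Scr 2 was not the lowest. Lhx2, a transcription factor that maintains cortical progenitors, had 591, 696 and 499 CPM in Mir, against 452, 299 and 362 CPM in Scr, with a fold change of 0.68 ± 0.17 (edgeR adjusted p = 0.213). Tnc, an extracellular matrix glycoprotein, had 60.1, 87.9 and 106 CPM in Mir, against 52.5, 31.4 and 51.9 CPM in Scr, with a fold change of 0.90 ± 0.26 (edgeR adjusted p = 0.234). Mfge8, a secreted integrin ligand, averaged 143 ± 33.1 CPM in Mir and 97.7 ± 5.32 CPM in Scr. For Mfge8, Sox21 and Pdpn the fold changes were 0.55, 0.54 and 0.64, with edgeR adjusted p of 0.244, 0.268 and 0.295. Pax6, the cortical radial glia transcription factor, had 126, 149 and 110 CPM in Mir, against 121, 65.4 and 105 CPM in Scr, and its fold change of 0.41 ± 0.22 did not pass the edgeR test (adjusted p = 0.445). Sox2 and the Notch effector Hes5 were at 0.11 and 0.17, with adjusted p of 0.786 and 0.681.

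The promoters of the core genes were read for the core letters bound by RBPJ, the DNA-binding partner of Notch (TGGGAA, or TTCCCA on the other strand), and by TCF/LEF factors, the DNA-binding partners of beta-catenin (CTTTGA or TCAAAG). The RefSeq table (GRCm38.p6) gave 12 promoters for the 10 genes, each 250 bases before and 50 bases after a start. The RBPJ letters were in 2 of these 12 promoters, those of Fabp7 and the outer one of Prom1, against 25.6% of all 32851 promoters. The TCF/LEF letters were in 1 of the 12, the second promoter of Prom1, against 16.0% of all promoters. The window of Fabp7, the most abundant of the core genes, is shown with the RBPJ letters in capitals (chr10:57784673-57784972, plus strand), as is the outer window of Prom1 (chr5:44101687-44101986, minus strand). A match is a string of letters and not a measured binding site.
Fabp7 promoter: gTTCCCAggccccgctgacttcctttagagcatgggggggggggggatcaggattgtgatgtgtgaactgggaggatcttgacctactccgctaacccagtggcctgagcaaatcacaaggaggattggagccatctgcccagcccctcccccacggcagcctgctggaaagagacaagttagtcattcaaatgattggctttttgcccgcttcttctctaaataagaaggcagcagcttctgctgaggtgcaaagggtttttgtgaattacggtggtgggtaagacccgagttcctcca
Prom1 promoter: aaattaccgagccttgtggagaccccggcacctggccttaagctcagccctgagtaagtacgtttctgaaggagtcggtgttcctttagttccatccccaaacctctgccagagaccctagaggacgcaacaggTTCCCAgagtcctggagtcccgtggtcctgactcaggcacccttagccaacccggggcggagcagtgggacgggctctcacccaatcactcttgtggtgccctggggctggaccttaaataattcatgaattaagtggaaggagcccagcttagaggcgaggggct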

How the data were processed

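Each library's deposited table held whole-number read counts per gene, not normalized by the authors. Per the submitters' processing notes, HISAT2 2.1.0, HTSeq 0.11.0, DESeq2 1.18.1 and build mm10/GRCm38 were used; neither the tools' roles nor the annotation and strand setting could be taken from the labels. Per the labels, SMART-seq v4 libraries, which do not mark strand, were read as 50 bp single reads. The 5 summary lines naming no gene stayed out of all sizes and tests, and 21.9 to 23.6% of a library's reads were in genes. Filtering with filterByExpr left 16897 of 54146 genes. The test was edgeR 4.0.16 (R 4.3.3; quasi-likelihood, two-sided, group as the sole term), adjusted over all genes at a threshold of 0.05, and was tested on simulated data. DESeq2 1.42.0, limma-voom 3.58.1, another filter, other scaling, a replicate block and leaving out libraries were alternatives. The p-values reflect variation among pools of 2 embryos. Reads are PCR-amplified and carry no molecular identifiers. Profiles and medians by library used log2(CPM + 0.5).

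Genes, sites and overlaps came from GENCODE M21 (GRCm38). TPM used the length of each gene's merged GENCODE exons over all its transcripts, and describes levels only. The order of genes by TPM depends on that length.

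The members and lists were chosen with earlier results of these data known. All 10 core genes are named; of the 30 other radial glia genes, the 6 with the smallest p plus Pax6, Sox2 and Hes5; of the relatives, those with a mean of at least 1 CPM (the 7 below it are named only as such); of each marker list, the 2 with the highest level (1 gene is not reported here); and the 5 genes of at least 10 CPM with the most similar profile.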

Additional observations from a re-analysis of the deposited data

How the results depend on the processing

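Over 14 alternatives, 140 fold changes of the core genes were recomputed; none passed an adjusted p of 0.05 and 125 kept the direction of the value reported. All 15 that changed direction came from leaving out libraries. Leaving out 1 library, the fold changes ran from -0.029 to 0.34 in Nes, -0.11 to 0.44 in Ttyh1, -0.18 to 0.32 in Ddah1, -0.41 to 0.14 in Ednrb, -0.070 to 0.23 in Prom1, -0.0077 to 0.33 in Dbi and -0.034 to 0.37 in Veph1, and those of Vim, Fabp7 and Slc1a3 stayed above 0 (lowest 0.058, 0.17 and 0.19, each without Mir 3). Ednrb was also above 0 without Mir 2 (0.10) and without Scr 1 (0.031). The core genes' median ran from 0.05 to 0.31 and that of the 30 other radial glia genes from 0.12 to 0.34. Without Mir 3 and Scr 2 together, Nes was -0.097, Vim -0.017, Prom1 -0.078, Ttyh1 -0.13, Dbi -0.10 and Ddah1 -0.28. The core median was -0.088 and the other list's 0.0041. For both lists a fall follows from the choice. Most core genes were highest in Mir 3 and lowest in Scr 2, and so was the median of the other list. Why those 2 libraries stood apart was not tested.

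Of all tested genes, 1 passed in the reported test, 31 with no filter on low counts, 534 with DESeq2, 0 with limma-voom, 29 without Mir 3 and Scr 2, and 0 to 2 without 1 library (2 without Mir 3). Of the other radial glia genes, 0 passed in the reported test, 1 with no filter and 3 with DESeq2; of the core genes, 0 throughout. Over all tested genes, the deviations of libraries sharing a number correlated at 0.22, -0.15 and -0.10, which shows no common pairing. With a replicate block, 0 genes passed and the core median was 0.17. The block lowered the standard error of every core gene, from 0.19 to 0.10 in Nes, 0.24 to 0.13 in Ddah1 and 0.20 to 0.19 in Slc1a3. Pairing among the core genes alone was not tested. With 3 libraries per group, no library could be tested as an outlier.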

Other observations

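Of 10415 genes with a mean of at least 10 CPM, those whose profile over the 6 libraries lay nearest to the mean profile of the core genes were Gpx8, Oat, Kpna2, Prim2 and Litaf, with root mean square differences of 0.054, 0.054, 0.070, 0.070 and 0.072 on the log2 scale. Gpx8 encodes a glutathione peroxidase of the endoplasmic reticulum, Oat ornithine aminotransferase, Kpna2 an importin of the nuclear import machinery, Prim2 a subunit of DNA primase and Litaf an endosomal membrane protein. Their fold changes were 0.22, 0.13, 0.21, 0.15 and 0.18, and none passed edgeR's test (adjusted p = 0.608, 0.705, 0.624, 0.680 and 0.541). The core genes' mean profile, centred on 0, was -0.12, 0.01 and 0.38 in Mir 1, 2 and 3, against 0.02, -0.35 and 0.07 in Scr 1, 2 and 3. Gpx8 had -0.13, 0.10 and 0.36 in Mir, against -0.055, -0.39 and 0.11 in Scr, so it too was highest in Mir 3 and lowest in Scr 2. Genes near this profile were chosen for it, and 6 libraries give the likeness no test.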
